A study of Mus musculus with 9 samples.

Results

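The immunoglobulin kappa V genes were taken as every row of the deposited expression table whose symbol starts with Igkv and a digit. This rule gave 162 of the 46517 rows in the table, in 20 numbered subgroups (the number after Igkv). The table covers aged C57BL/6 mice of more than 18 months. Wild-type spleens numbered 1, 4 and 5 make up the first group (3 samples). The second holds 4 plckGAPDH spleens, namely 343, 508, 547 and a column without a number that is called the unnumbered spleen. That column was placed in the group because its name shares a word with the titles of these spleens. The labels do not say which animal it came from, so it is not known to be independent of the other spleens. It was counted as a separate sample. The third group holds plckGAPDH lymph nodes 455 and 508. In every plckGAPDH mouse the Lck promoter drives a Gapdh transgene, a promoter used for expression in T cells and their precursors. The protocol describes these mice as developing tumours and the RNA as total RNA of splenocytes. Spleen 508 and lymph node 508 share a number and were taken to be from the same animal, and a spleen titled 331 has no column under that number. The numbers in the titles differ otherwise, but the labels do not state what a number stands for, so the p-values cover only the spread among these libraries.

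A kappa light chain is made when a developing B cell joins a V gene of the kappa locus to a J segment, and the joined exon is then spliced to the constant gene Igkc. A B cell usually keeps a single productive light chain, so its descendants share the same V gene, while a mixed B cell population uses many V genes. The values are FPKM, fragments scaled to gene length and library size, and they count fragments that fall on the germline V exon.

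The sequences of the V genes that led at least 1 library, and of the genes in second place in the lymph nodes, are shown to make plain how alike or unlike the leading genes are. Each is the last 90 bases of the GENCODE M21 transcript on build GRCm38 (mm10), 5′ to 3′, and the capitals mark the codon of the last cysteine in frame, after which the hypervariable joining region (CDR3) begins.
Igkv19-93, chr6:68736297-68736780, minus strand: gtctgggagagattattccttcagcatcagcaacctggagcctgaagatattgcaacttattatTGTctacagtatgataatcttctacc
Igkv6-15, chr6:70406469-70406992, minus strand: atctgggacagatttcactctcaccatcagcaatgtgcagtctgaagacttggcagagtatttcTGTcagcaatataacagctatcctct
Igkv10-96, chr6:68631963-68632442, minus strand: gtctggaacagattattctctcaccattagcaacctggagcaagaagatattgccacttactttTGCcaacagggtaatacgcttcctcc
Igkv5-39, chr6:69900424-69900977, minus strand: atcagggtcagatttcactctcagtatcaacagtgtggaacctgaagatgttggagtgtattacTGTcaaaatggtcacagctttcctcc
Igkv4-63, chr6:69377944-69378472, minus strand: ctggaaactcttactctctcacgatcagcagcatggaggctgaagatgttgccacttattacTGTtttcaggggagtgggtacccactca
Igkv4-91, chr6:68768555-68769103, minus strand: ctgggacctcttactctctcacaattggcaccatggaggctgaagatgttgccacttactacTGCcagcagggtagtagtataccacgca
Igkv9-124, chr6:67942074-67942540, minus strand: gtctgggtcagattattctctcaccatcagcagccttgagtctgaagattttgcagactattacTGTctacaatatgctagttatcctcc
Igkv4-61, chr6:69416893-69417455, minus strand: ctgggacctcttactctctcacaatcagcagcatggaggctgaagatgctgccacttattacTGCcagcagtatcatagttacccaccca
Igkv4-57, chr6:69575975-69576500, minus strand: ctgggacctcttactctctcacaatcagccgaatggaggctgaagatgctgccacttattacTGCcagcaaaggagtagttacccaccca
Igkv10-95, chr6:68680379-68680848, plus strand: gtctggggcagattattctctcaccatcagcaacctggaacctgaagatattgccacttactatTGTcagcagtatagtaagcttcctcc

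The germline gene ends 23 bases after that codon in the 6 printed genes outside subgroup 4 and 25 bases after it in the 4 of subgroup 4. Over the last 280 bases, Igkv4-61 and Igkv4-57 were 93.6% identical and Igkv10-95 and Igkv10-96 were also 93.6% identical. Among the genes that led plckGAPDH spleens, Igkv4-63 and Igkv4-91 were 82.5% identical, whereas Igkv5-39 and Igkv9-124 were 67.3% identical.

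GENCODE annotates 101 of the rows as functional V genes and 61 as V pseudogenes, all on chromosome 6 over 3.15 Mb. Of the 162 rows, 125 were above 0 in at least 1 library, 37 were at 0 in all 9, and 102 reached 1 FPKM somewhere (95 functional genes and 7 pseudogenes). Depth, estimated from the whole-fragment steps of low values, was 23900000 to 34700000 fragments per library. The whole family drew between 5243 fragments (plckGAPDH spleen 508) and 34110 (plckGAPDH spleen 547), and 3 fragments of a V gene of median length corresponded to 0.46 to 0.65 FPKM. The libraries also differed in other cells. The summed FPKM of 6 erythroid markers was 71.2, 1.78 and 74167 in wild-type spleens 1, 4 and 5, and that of 7 neutrophil markers was 3374, 4.27 and 478. The summed FPKM of 12 B cell markers was 2329, 519 and 2328 in the same spleens. In plckGAPDH spleens the B cell sum ran from 663 to 1372, within the wild-type range, and none of its markers was at 0 in every library. A list of 6 stromal and lymph node markers summed to 12.7 and 1.99 FPKM in lymph nodes 455 and 508 and to 1.99 to 11.8 in the spleens, so it did not separate the tissues. Neutrophil and erythroid lists did not overlap between the tissues of plckGAPDH mice. Neutrophil markers summed to 36.4 and 54.3 FPKM in lymph nodes 455 and 508 and to 564 to 1328 in plckGAPDH spleens, and erythroid markers to 5.06 and 6.98 against 29.65 to 2144. Plasma cell markers summed to 2713 and 2456 FPKM in the lymph nodes and to 90.04 to 454 in plckGAPDH spleens other than spleen 508, which had 4613. The part of these differences in the results was not tested, and the shares used here, taken within the family, do not contain the other genes.

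Wild-type spleens spread their kappa V expression over many genes. In wild-type spleen 1 the family sum was 3988 FPKM, in spleen 4 it was 2889 and in spleen 5 it was 2917. These sums lay close together, and 89, 83 and 96 rows reached 1 FPKM. The number of genes that together held 90% of the sum was 35, 45 and 51. In all 3 spleens, 18 genes each held more than 1% of the sum. The ranks of the 125 expressed rows correlated at Spearman 0.907 to 0.918 between wild-type spleens, a description across genes that share a library and an annotation. Wild-type spleen 1 was the least even. Its leading gene was Igkv19-93 with 924 FPKM, against 62.2 in spleen 4 and 120 in spleen 5. Its second gene, Igkv1-99, had 579 FPKM, against 2.96 and 1.52. Both genes were highest in spleen 1, and of the pair only Igkv1-99 was low in the other wild-type spleens. Together with Igkv4-55 they held 47.4% of the kappa V sum of spleen 1. Spleen 4 was led by Igkv6-15 (8.55%) and spleen 5 by Igkv10-96 (5.49%), which was also second in spleen 4 (6.88%).

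In each plckGAPDH spleen a single V gene held more than 50% of the family sum, and it was a different gene in each.

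**Figure D1:**
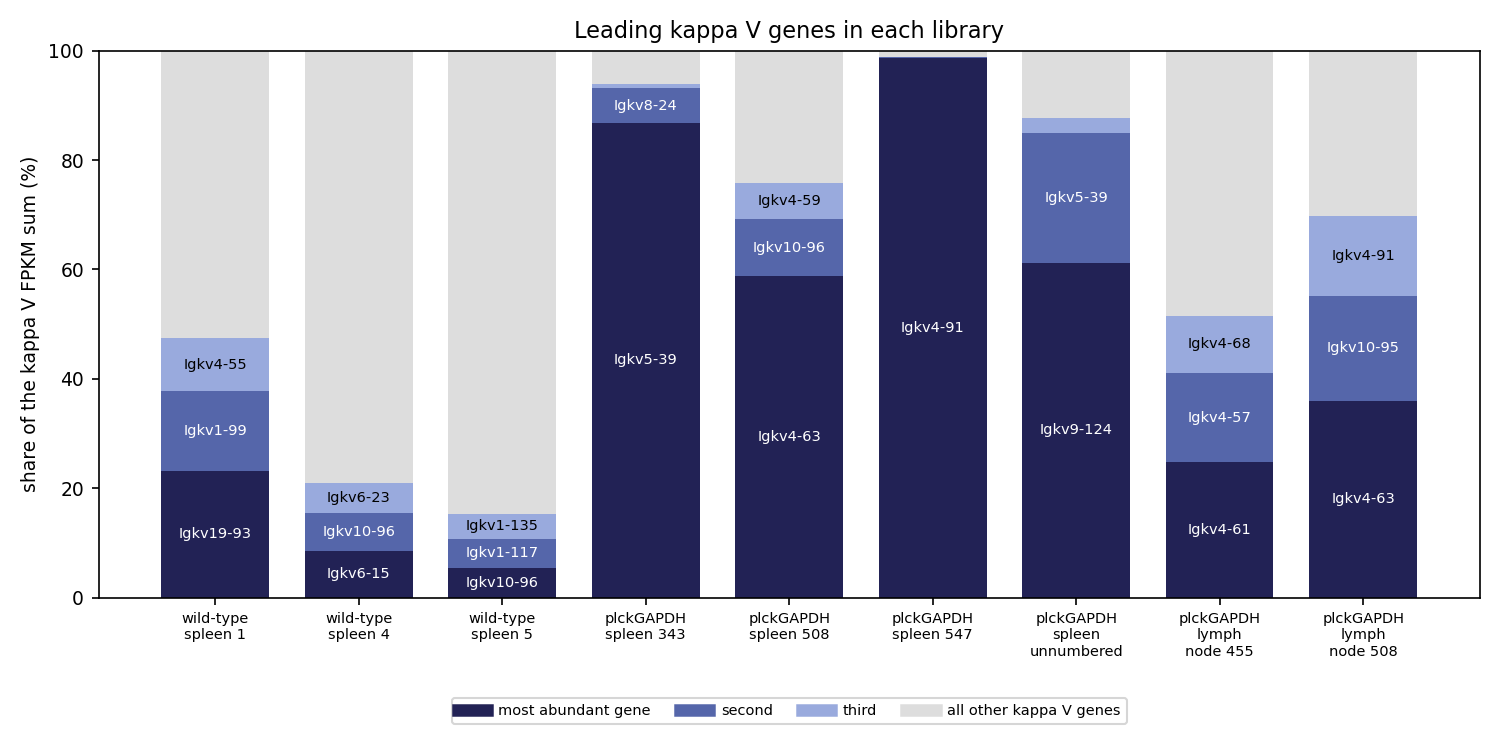
Stacked bars give, for each of the 9 libraries (horizontal axis), the share of the kappa V FPKM sum in percent (vertical axis) held by the most abundant gene, the second, the third and all others. The most abundant gene holds 58.7% to 98.6% in plckGAPDH spleens, 24.8% and 36.0% in plckGAPDH lymph nodes and 5.49% to 23.2% in wild-type spleens.

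Igkv4-91 had 5154 FPKM in plckGAPDH spleen 547 and 13.9, 8.77 and 2.33 in spleens 343, 508 and the unnumbered spleen, against 16.1, 10.8 and 21.5 in wild-type spleens 1, 4 and 5. Spleen 547 was thus far above the other 6 spleens. Spleen 343 lay within the wild-type range, and spleen 508 and the unnumbered spleen lay below it. Igkv5-39 had 1527 FPKM in spleen 343 and 429 in the unnumbered one, but 2.71 and 5.86 in spleens 508 and 547, against 71.6, 57.5 and 64.1 in wild-type spleens. This gene was above all wild-type spleens in a pair of plckGAPDH spleens and below all of them in the other pair. It was the leader of spleen 343 (86.8%) and the second gene of the unnumbered spleen (23.9%).

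Igkv9-124, the leader of the unnumbered spleen, had 1098 FPKM there and 0.33, 0.88 and 0 in spleens 343, 508 and 547, against 10.6, 13.9 and 15.01 in wild-type spleens. The 3 remaining plckGAPDH spleens were below every wild-type spleen. Igkv4-63 had 661 FPKM in spleen 508 and 27.04 in the unnumbered one, but 1.34 and 0.49 in spleens 343 and 547, against 8.03, 3.13 and 13.4 in wild-type spleens. Here a pair of plckGAPDH spleens was above and a pair below the wild-type range.

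Apart from Igkv5-39, these genes were at modest levels in wild-type spleens. The wild-type means were 16.2 ± 5.36 FPKM for Igkv4-91, 13.2 ± 2.29 for Igkv9-124, 8.20 ± 5.16 for Igkv4-63 and 64.4 ± 7.05 for Igkv5-39 (SD, n = 3). Of the second-place genes, Igkv8-24 in spleen 343 had 113 FPKM, against 0.41, 0.29 and 1.63 in the other plckGAPDH spleens and 35.5, 18.9 and 52.8 in wild-type spleens. Igkv10-96 in spleen 508 had 119 FPKM, within its wild-type range of 73.6 to 199.

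**Figure D2:**
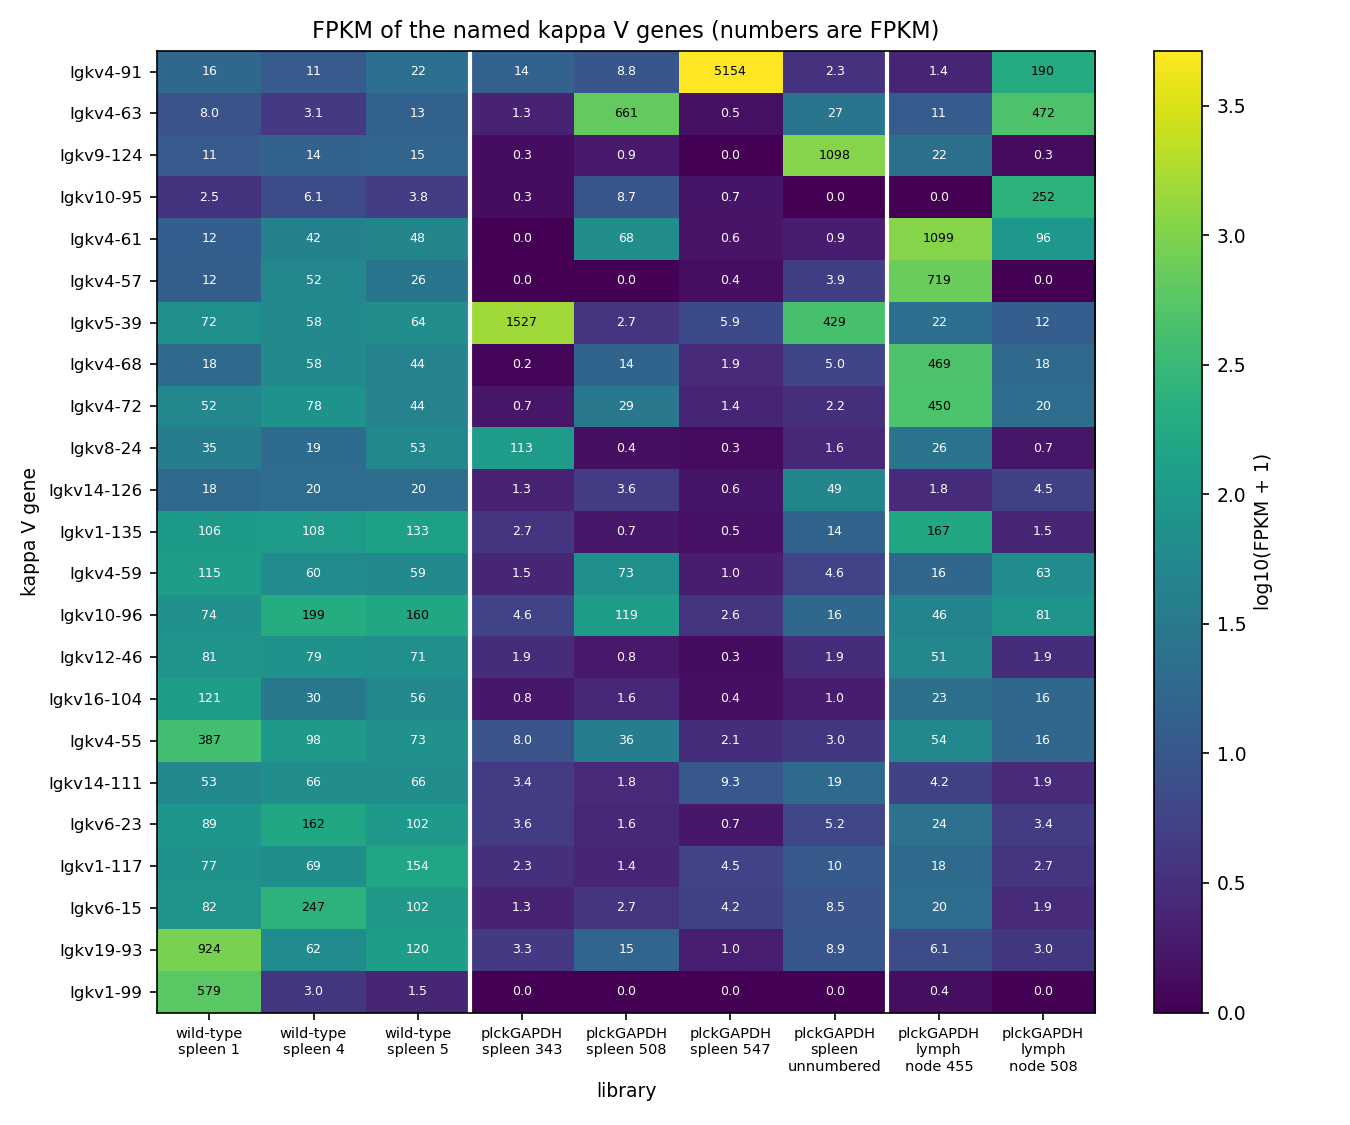
Each row is a named kappa V gene and each column a library, with the colour giving log10(FPKM + 1) and the printed number the FPKM. In the columns of plckGAPDH spleens the leading gene is the brightest, such as Igkv4-91 at 5154 FPKM in spleen 547, and spleen 508 has several other genes near wild-type levels, such as Igkv10-96 at 119 FPKM. The wild-type columns are more even, apart from Igkv1-99 and Igkv19-93, which are brightest in spleen 1.

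The remaining kappa V expression was lower in plckGAPDH than in wild-type spleens. With its leading gene set aside, the family summed to 3064, 2642 and 2757 FPKM in wild-type spleens 1, 4 and 5. The same sum was 233, 464, 73.1 and 698 FPKM in plckGAPDH spleens 343, 508, 547 and unnumbered. The groups did not overlap, and their means were 2821 ± 218 (SD, n = 3) and 367 ± 273 (SD, n = 4). The rows at 1 FPKM or more numbered 26, 31, 22 and 47 in plckGAPDH spleens 343, 508, 547 and unnumbered, also below all wild-type spleens. Across all 7 spleens 11 genes reached 1 FPKM, among them Igkv4-91, Igkv5-39, Igkv10-96, Igkv19-93 and Igkv6-15. Of the 80 rows that reached it in all 3 wild-type spleens, 22 reached it in no plckGAPDH spleen, among them Igkv1-99, against 1.06% of all such rows of the table. In bulk RNA, fewer B cells and less kappa RNA per B cell, for example, cannot be told apart, and no cause of the lower remainder was tested.

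How even this remainder was differed between plckGAPDH spleens. The effective number of genes is the exponential of the Shannon entropy of the shares, and equals the number of genes when all are used equally. Over the whole family it was 25.3, 48.0 and 56.8 in wild-type spleens and 2.05, 5.71, 1.13 and 4.20 in plckGAPDH spleens 343, 508, 547 and unnumbered. Without the leading gene it was 33.1, 50.1 and 57.4 in wild-type spleens and 11.8, 13.2, 34.5 and 7.17 in plckGAPDH spleens. Spleen 547, the least even library with its leader, thus came within the wild-type range without it, at an estimated 488 fragments for the rest of the family. No p-value was computed for these scores.

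**Figure D3:**
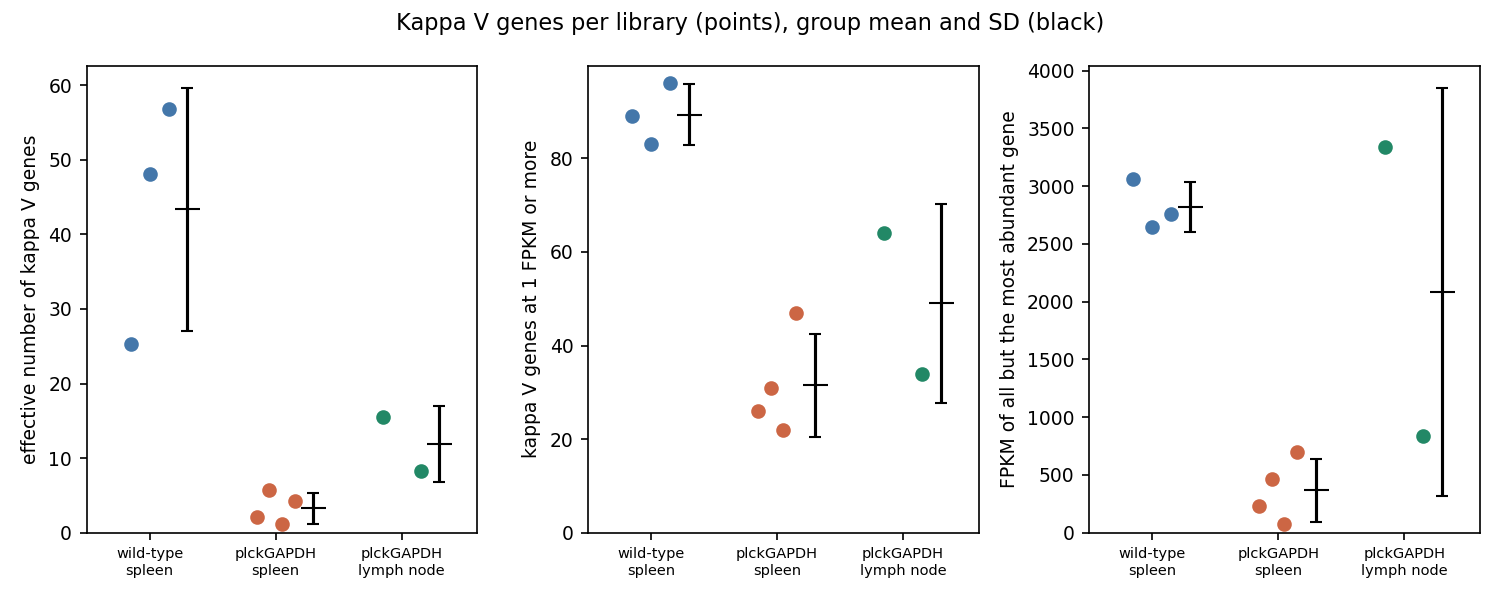
Points are libraries and black marks are the group mean with its SD, for the effective number of kappa V genes (left), the number of kappa V genes at 1 FPKM or more (middle) and the FPKM sum of all kappa V genes but the most abundant (right). In all panels the 3 wild-type spleens lie above the 4 plckGAPDH spleens, while the 2 lymph nodes lie apart from each other.

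The gene-by-gene comparison of spleens used limma on log2(FPKM + 1) across all 12607 genes with 1 FPKM in at least 3 of the 7 spleens. Calls were made where the false discovery rate (FDR, by Benjamini-Hochberg) stayed under 0.05. Of the 162 kappa V rows, 80 were tested, and 61 of these were called lower in plckGAPDH spleens, against 1.23% of all genes tested. None was called higher, against 0.206% of all genes tested, and the 2 positive estimates had unadjusted limma p-values of 0.507 and 0.553. All 80 tested rows reached 1 FPKM in all 3 wild-type spleens, so most entered the test through the group in which they were high. Only 21 of them also reached it in at least 3 plckGAPDH spleens, and 12 of those 21 were called lower. With wild-type spleen 1, 4 or 5 left out, 58 rows were tested and 37, 34 and 35 were called lower, and with no filter 36 of 124 were. Of the 82 rows left untested, 44 were above 0 in some spleen and 38 were at 0 in all 7. Counted without a test over all 162 rows, 80 rows had every plckGAPDH spleen below every wild-type spleen, against 2.41% of all rows in the table. Among the 80 tested rows this held for 66, against 3.88% of all genes tested.

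The 6 called genes with the largest falls came from 5 subgroups. Igkv12-46 had 81.5, 79.4 and 71.3 FPKM in wild-type spleens and 1.92, 0.78, 0.31 and 1.93 in plckGAPDH spleens 343, 508, 547 and unnumbered. The lowest wild-type spleen was thus far above the highest plckGAPDH spleen, and limma gave -5.21 ± 0.39 (SE, FDR 0.000116) on the log2 scale. Igkv6-23 had 89.3, 162 and 102 FPKM in wild-type spleens and 3.58, 1.62, 0.72 and 5.20 in plckGAPDH spleens. Its groups were also fully apart, and limma gave -5.09 ± 0.48 (SE, FDR 0.000209).

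Igkv1-135 had 106, 108 and 133 FPKM against 2.66, 0.72, 0.51 and 14.3, a log2 fold change of -5.06. The value of 14.3 belonged to the unnumbered spleen, the highest of the plckGAPDH spleens for this gene. Igkv16-104, the only gene of its subgroup, had 121, 30.3 and 55.8 FPKM against 0.76, 1.55, 0.41 and 0.96, a log2 fold change of -5.00. Igkv19-93, the leader of wild-type spleen 1, had 3.28, 15.2, 1.04 and 8.87 FPKM in plckGAPDH spleens, below its 62.2 FPKM in wild-type spleen 4, and fell by 4.97 on the log2 scale. Igkv6-15 had 81.5, 247 and 102 FPKM against 1.34, 2.72, 4.22 and 8.52, a log2 fold change of -4.82. In all 6 genes no plckGAPDH spleen reached the lowest wild-type spleen. Further called genes among those that ranked high in some library were Igkv1-117, Igkv14-111 and Igkv4-55. Igkv1-117 had 77.4, 68.9 and 154 FPKM in wild-type spleens and 1.43 to 10.1 in plckGAPDH spleens (log2 fold change -4.33, limma FDR 0.000737). Igkv14-111, second in spleen 547 with 9.3 FPKM, had 53.3 to 65.8 FPKM in wild-type spleens (log2 fold change -3.14, limma FDR 0.0161). Igkv4-55 had 387, 97.9 and 73.4 FPKM against 8.01, 36.1, 2.09 and 3.05 (log2 fold change -4.14, limma FDR 0.0216). Over the 61 called genes the log2 fold change ran from -5.21 to -1.54. In all 61 the groups did not overlap, which adds no support because the calls were made on the same values.

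The 19 tested rows that were not called held the leading genes of the plckGAPDH spleens. In 8 of the 19 the highest of the 7 spleens was a plckGAPDH spleen, and in 5 the groups did not overlap. The log2 fold changes were 1.26 ± 1.85 for Igkv4-91 (SE, limma FDR 0.970), 0.97 ± 1.59 for Igkv4-63 (FDR 0.976), -0.03 ± 1.68 for Igkv5-39 (FDR 0.998) and -0.95 ± 1.87 for Igkv9-124 (FDR 0.983). Each standard error was wider than its difference. Without spleen 547 the Igkv4-91 value was -1.08 (limma FDR 0.639), and without spleen 508 the Igkv4-63 value was -0.82 (limma FDR 0.911). Without the unnumbered spleen, the Igkv9-124 value was -3.37 (limma FDR 0.000251). In each of these fits the spleen left out was the one that the gene led, so they are no separate test. The other 3 plckGAPDH spleens had at most 0.88 FPKM of Igkv9-124, as given above. The Igkv5-39 value was 1.34 without spleen 508 and 1.05 without spleen 547, each with a limma FDR of at least 0.911.

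Igkv1-99, Igkv10-96 and Igkv4-59 were the other genes with high wild-type means that were not called. Igkv1-99 was listed at 0 in all 4 plckGAPDH spleens. Its limma FDR was 0.280, with 579 FPKM in wild-type spleen 1 and under 3 FPKM in the other two. Igkv10-96 had 73.6, 199 and 160 FPKM in wild-type spleens and 4.6, 119, 2.58 and 16.2 in plckGAPDH spleens (log2 fold change -3.23, limma FDR 0.193). Igkv4-59 had 115, 60.4 and 59.1 FPKM against 1.54, 72.5, 1.01 and 4.58 (log2 fold change -3.48, limma FDR 0.165). In both genes spleen 508 alone reached wild-type values.

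**Figure D4:**
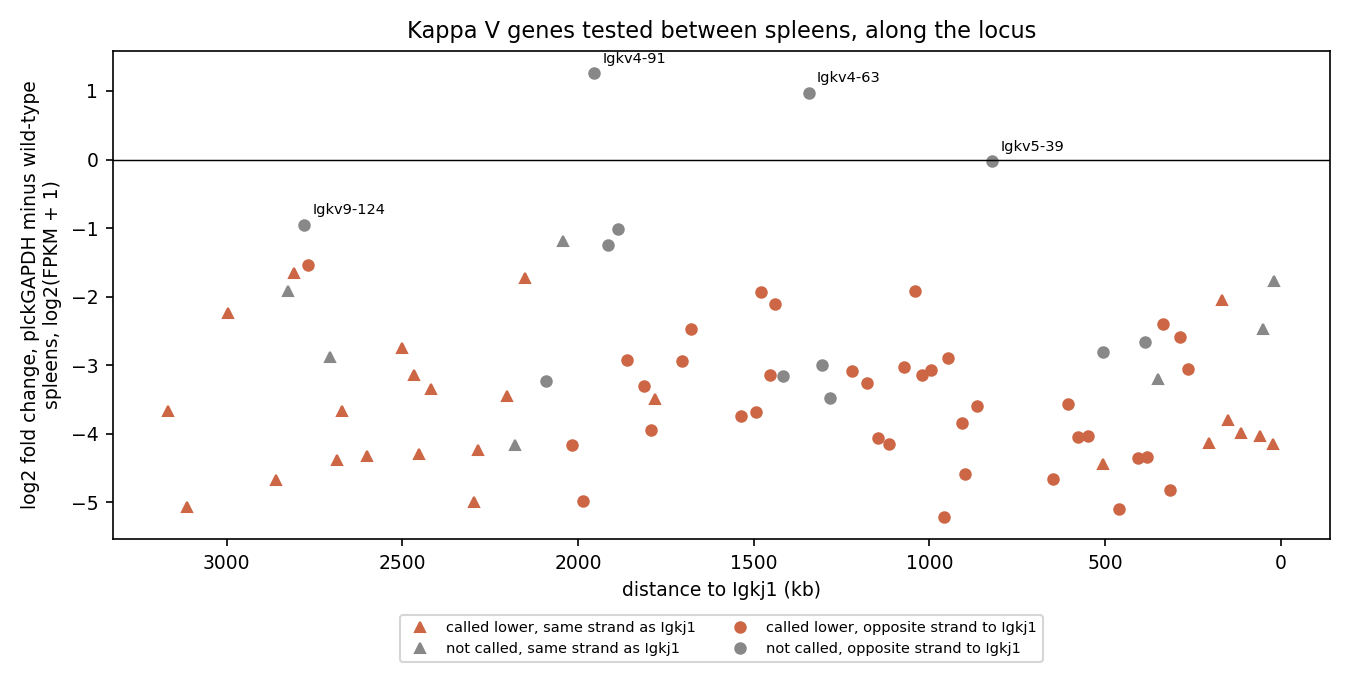
Each of the 80 tested kappa V genes is placed by its distance to Igkj1 in kb (horizontal axis) and its log2 fold change between plckGAPDH and wild-type spleens on the log2(FPKM + 1) scale (vertical axis), with colour for the limma call and shape for the strand. Called genes, between -5.21 and -1.54, lie along the whole locus, and the 4 leading genes of plckGAPDH spleens stand above most others.

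By subgroup, the wild-type spleens were alike in subgroup 4 and differed more in subgroups 1, 6 and 19. Subgroup 4, the largest with 33 rows, held 18.2%, 18.3% and 16.8% of the kappa V sum in wild-type spleens 1, 4 and 5. Subgroup 1 held 20.9%, 10.7% and 15.3%, and subgroup 6 held 6.80%, 18.2% and 14.3%. Subgroup 3 held 5.24%, 10.3% and 7.40%. Subgroup 19 held 23.2% in wild-type spleen 1, nearly all of it Igkv19-93, and 2.17% and 4.13% in the other two.

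In plckGAPDH spleens the subgroups followed the leading genes. Subgroup 4 held 1.62%, 79.5%, 98.9% and 3.17% in spleens 343, 508, 547 and unnumbered, so a pair of spleens lay above and a pair below every wild-type spleen. Its group means were 17.8% ± 0.83 (SD, n = 3) and 45.8% ± 50.7 (SD, n = 4). Subgroup 5 held 87.1%, 0.52%, 0.12% and 24.3% in the same order, against 3.96% to 6.26% in wild-type spleens. Subgroup 9 held 61.2% in the unnumbered spleen and 0.01% to 0.20% in the other plckGAPDH spleens. Subgroups 1, 3 and 6 stayed at or below 2.26%, 1.69% and 3.29% in all 4 plckGAPDH spleens, below every wild-type spleen. None of them held a leading gene of these spleens, so their low shares follow in part from the leading genes. Shares without the leading gene were not computed. In FPKM, subgroup 1 summed to 5.78 to 40.6 in plckGAPDH and 311 to 834 in wild-type spleens. Subgroup 3 summed to 4.15 to 29.8 against 209 to 298, and subgroup 6 to 9.87 to 37.0 against 271 to 527. Within subgroup 4, 15 of 21 tested genes were called lower, and in subgroup 8, 6 of 7. Both lay near the 61 of 80 of the whole family (1.23% over all genes tested), so these counts set neither subgroup apart. Subgroups 7, 18 and 20, each a single row, had no tested gene.

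**Figure D5:**
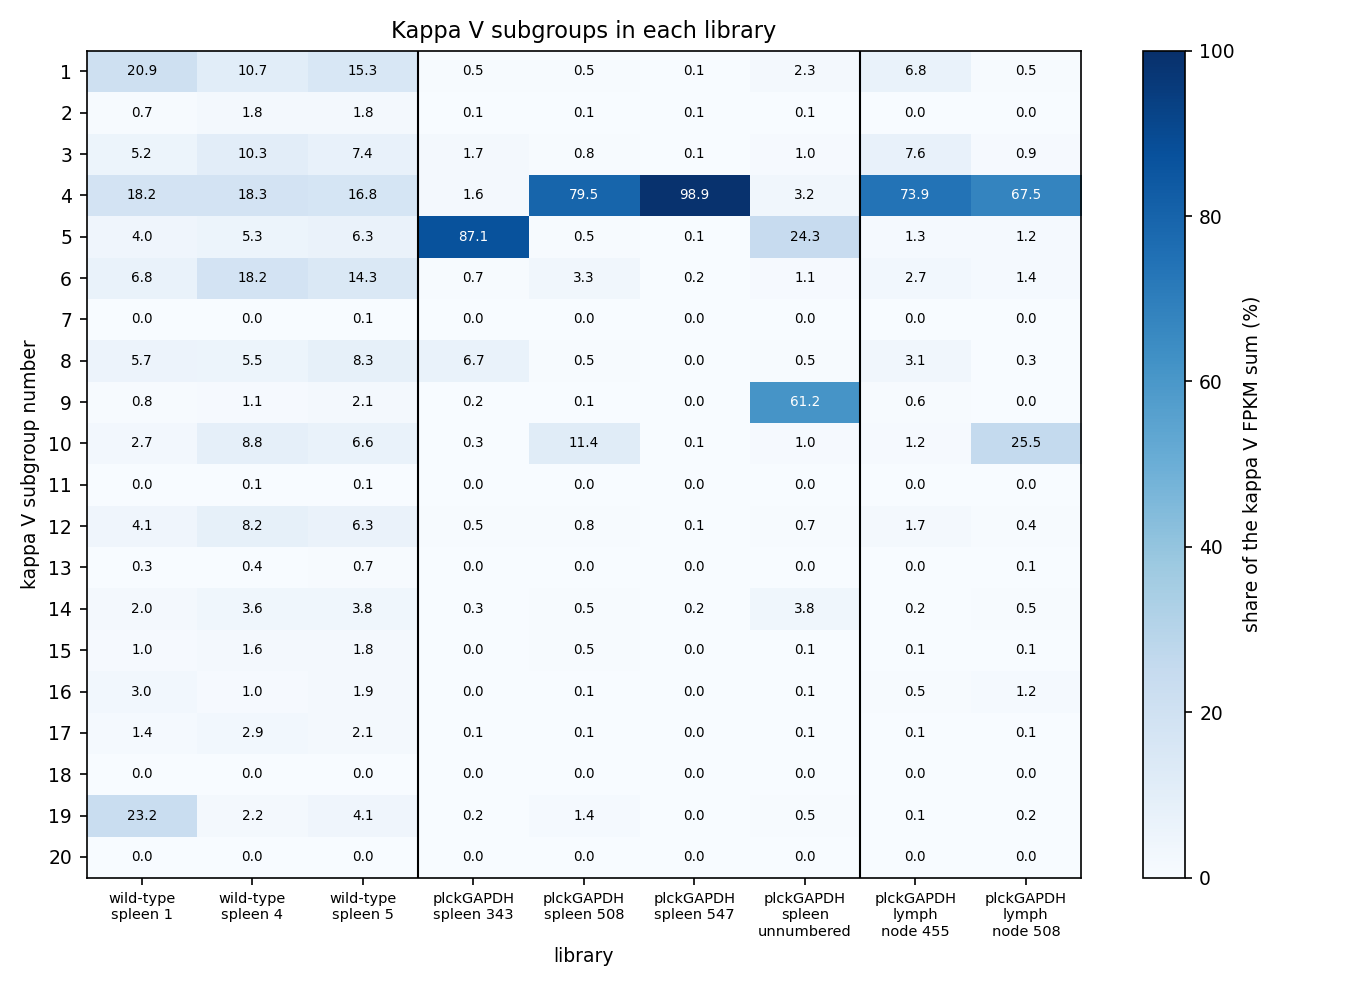
Rows are the 20 kappa V subgroups and columns the 9 libraries, and each cell gives the share of the library's kappa V FPKM sum in percent. Wild-type columns spread over many subgroups, with subgroup 4 at 16.8% to 18.3%, whereas the plckGAPDH columns have most of their sum in subgroup 4, 5 or 9.

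The plckGAPDH lymph nodes were less dominated by a single V gene than the plckGAPDH spleens, and each had its own pattern. Lymph node 455 had a family sum of 4434 FPKM and 64 rows at 1 FPKM, and lymph node 508 had 1310 FPKM and 34 rows. Their effective numbers were 15.5 and 8.26, above all 4 plckGAPDH spleens and below all 3 wild-type spleens. Subgroup 4 held 73.9% in lymph node 455 and 67.5% in lymph node 508.

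Lymph node 455 combined several close relatives of subgroup 4. Igkv4-61 had 1099 FPKM there, against 95.7 in lymph node 508, and Igkv4-57 had 719 against a listed 0. Igkv4-68 had 469 FPKM against 18.2, and Igkv4-72 had 450 against 20.2. All 4 genes were highest in lymph node 455 among the 9 libraries. Between spleens, Igkv4-57 (log2 fold change -4.06, limma FDR 0.00309) and Igkv4-72 (-3.68, limma FDR 0.0445) were called lower, and Igkv4-68 (-3.15, limma FDR 0.0641) and Igkv4-61 (-2.99, limma FDR 0.420) were not. Igkv4-61 was 96.4% identical to Igkv4-68, 93.9% to Igkv4-72 and 93.6% to Igkv4-57 over the last 280 bases, so how the counting divided fragments among them is uncertain. A row annotated as a pseudogene by GENCODE, Igkv4-73, had 103 FPKM in this lymph node and at most 2.25 in any other library. That row brought the pseudogene share of lymph node 455 to 2.58%, against 0.02% to 0.65% in the other 8 libraries.

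The spleen and lymph node of animal 508 shared their leading kappa V gene, but kappa was a small part of their light chain RNA. Igkc was 0.90% of the summed FPKM of Igkc and Iglc1 to Iglc3 in the spleen and 1.99% in the lymph node. The lambda V gene Iglv1 had 42593 FPKM in the spleen and 22172 in the lymph node, far above any kappa V gene there. Igkv4-63 held 58.7% of the kappa V sum in the spleen (661 FPKM) and 36.0% in the lymph node (472 FPKM), and Igkv4-61, Igkv4-59 and Igkv10-96 each held more than 4.8% in both. The next genes of the lymph node, in the second and the third place, were low in the spleen. Igkv10-95 had 252 FPKM in the lymph node and 8.71 in the spleen, and Igkv4-91 had 190 against 8.77. The ranks of the 125 expressed rows correlated at Spearman 0.808 between this spleen and lymph node, above every other pair of plckGAPDH libraries (0.483 to 0.722). The unnumbered plckGAPDH spleen correlated more highly still with wild-type spleens 1, 4 and 5 (0.813, 0.839 and 0.827). A value of this size is thus not particular to samples of the same animal. The values of animal 508 describe genes of 2 libraries of 1 animal.

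Between plckGAPDH lymph nodes and spleens, limma tested 92 kappa V rows and called 0 of them higher and 0 lower. Of all 13682 genes tested, 0.00731% were called in each direction. Spleen 508 and lymph node 508, taken to be from the same animal, entered this fit as independent samples. At an unadjusted limma p under 0.05, 18 rows were higher and 1 was lower, while 1546 of all 13682 genes tested reached it in either direction. The neutrophil and erythroid marker sums given above were lower in both lymph nodes than in all plckGAPDH spleens, and plasma cell markers were lower in 3 of the 4 spleens than in the lymph nodes. Their part in this comparison was not tested. The median log2 fold change over the 92 rows was 0.66, and that over all genes tested was -0.59. The largest estimate was 6.43 ± 1.501 for Igkv4-61 (SE, limma FDR 0.359). The lowest FDR was 0.142 for Igkv16-104, which had 22.7 and 15.8 FPKM in the lymph nodes and at most 1.55 in plckGAPDH spleens. Without lymph node 508, the median log2 fold change of the kappa V rows was 1.27, against -0.44 over all genes tested. Without lymph node 455 these medians were -0.06 and -0.75. The remaining lymph node then stood alone, so no calls are given. Without plckGAPDH spleen 508, 2 rows were called higher, against 21 of all 13578 genes tested.

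Along the locus, most rows next to the leading genes of plckGAPDH spleens were low in the same library, with exceptions in spleen 508 and the unnumbered spleen. Many of these rows, above all around Igkv5-39 and Igkv4-63, were low in wild-type spleens too. Of the 8 rows nearest to Igkv5-39 in spleen 343, where it had 1527 FPKM, none exceeded 0.89 FPKM. Apart from Igkv12-41 (14.3 to 21.1 FPKM), none of these rows exceeded 2.63 FPKM in wild-type spleens. Around Igkv4-91 in spleen 547 the 8 nearest rows reached 2.43 FPKM at most, against 5154 for Igkv4-91. In spleen 508, 7 of the 8 rows nearest to Igkv4-63 were at or below 0.22 FPKM, and none of these 7 exceeded 3.75 FPKM in wild-type spleens. The exception was Igkv4-61, 38.9 kb away, with 67.9 FPKM, while its wild-type values were 12.05 to 48.4 and no other plckGAPDH spleen exceeded 0.89. In the unnumbered spleen Igkv14-126, 45.9 kb from the leader Igkv9-124, had 48.9 FPKM, against 1.26, 3.63 and 0.61 in the other plckGAPDH spleens and 17.7, 20.3 and 20.1 in wild-type spleens. It was the only one of the 8 neighbours of Igkv9-124 above 8.80 FPKM. Of the others, Igkv17-127, Igkv17-121 and Igkv9-120 had at least 15.97 FPKM in each wild-type spleen.

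The leading genes lay in different parts of the locus but on the same strand. In the 81 rows next to the J segments the share of the sum was 50.7% ± 9.14 in wild-type spleens (SD, n = 3) and 52.3% ± 44.7 in plckGAPDH spleens (SD, n = 4). Over the 40 rows nearest to the J segments it was 27.4% ± 8.53 and 4.15% ± 3.72. Every plckGAPDH spleen (0.31% to 9.10%) was below every wild-type spleen (17.8% to 34.1%). The leading gene of each plckGAPDH spleen lay outside these 40 rows and held 58.7% to 98.6% of the sum. A low share here thus follows in part from the leading gene, and the share without that gene was not computed. Igkj1 lies on the plus strand, and 86 of the 162 rows lie on the minus strand, from which a V gene joins J by inversion rather than deletion. Minus-strand genes held 63.7%, 64.8% and 61.0% in wild-type spleens and 97.0%, 93.8%, 99.5% and 92.3% in plckGAPDH spleens 343, 508, 547 and unnumbered. The leading gene of all 9 libraries was on the minus strand. With it set aside, the minus share was 52.7%, 61.5% and 58.7% in wild-type spleens and 77.6%, 85.0%, 61.0% and 80.2% in plckGAPDH spleens, so the groups overlapped. Of the tested genes, 24 of 31 on the plus strand and 37 of 49 on the minus strand were called lower. Both lay near the 61 of 80 of the whole family (1.23% over all genes tested), so the calls did not separate the strands.

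The kappa V sum did not keep a constant ratio to Igkc, the constant gene. In wild-type spleens the ratio of the V sum to Igkc was 0.591, 0.621 and 0.640. In plckGAPDH spleens 343, 508, 547 and unnumbered it was 0.562, 1.17, 0.864 and 0.463, on both sides of the wild-type values. In lymph node 455 it was 0.201, with Igkc at 22055 FPKM, and in lymph node 508 it was 1.20, with Igkc at 1094 FPKM. Lymph node 455 thus had the highest Igkc of all libraries and the lowest ratio. Igkc itself was not called between spleens (log2 fold change -0.85 ± 0.69, SE, limma FDR 0.884). Igkj1 to Igkj5 are listed at 0 everywhere and are shorter than the fragment-length correction in the values, so J use could not be read. Both samples of animal 508 had high lambda constant RNA, with Iglc1 at 104354 FPKM in the spleen and 53162 in the lymph node, against 54.99 to 510 in the other libraries.

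Genes that act on the kappa locus were compared beside the V genes. Of 10 tested V(D)J recombination genes, which cut and rejoin the gene segments, none was called between spleens by limma (0 at an unadjusted p under 0.05). Rag1 and Rag2, the recombinase, were at or below 0.19 FPKM in all libraries. Of 18 transcription factor genes listed for the kappa locus, none was called (1 at an unadjusted p under 0.05). Of 9 somatic hypermutation genes none was called (3 at an unadjusted p under 0.05). Of all 12607 genes tested, 1.23% were called lower and 0.206% higher, and 1116 had an unadjusted limma p under 0.05. With so few calls among all genes, the absence of calls in such short lists says little about them.

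Of 12 B cell markers, 2 were called lower between spleens, against 1.23% of all genes tested. Cr2, the complement receptor of follicular and marginal zone B cells, had 155, 11.01 and 146 FPKM in wild-type spleens and 0.69, 0.14, 0.14 and 1.28 in plckGAPDH spleens (log2 fold change -5.44 ± 0.75, SE, limma FDR 0.00169). Fcer2a, the low-affinity IgE receptor, had 41.5, 17.5 and 107 FPKM against 1.07, 9.83, 0.22 and 0.81 (log2 fold change -4.05 ± 0.73, SE, limma FDR 0.0136). Summed plasma cell markers ran from 251 to 371 FPKM in wild-type spleens and from 90.04 to 4613 in plckGAPDH spleens, and their part in the kappa V values was not tested.

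Some rows cannot be assigned with certainty. On 4 symbols the table has 2 rows each, and in each pair the second row carries an Ensembl ID that GENCODE gives another name. One of these rows, deposited as Igkv12-47 and named Igkv13-85 in GENCODE, had 11.2, 95.8 and 20.9 FPKM in wild-type spleens and at most 2.49 in plckGAPDH spleens. Of 160 rows long enough to compare over the last 280 bases, 63 had another kappa V row at 95% identity or more, 18 of them among the 33 rows of subgroup 4. The leading genes of plckGAPDH spleens differed in this respect. The nearest other row was 87.5% identical for Igkv4-91, 91.8% for Igkv5-39, 92.9% for Igkv4-63 and 95.7% for Igkv9-124.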

How the data were processed

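Total RNA of splenocytes was sequenced from 500 ng with a stranded kit as 2 reads of 75 bases, per the labels' protocols. The deposited table gives FPKM, and no counts were used. The tools named in the submitters' processing notes are RSEM, Bowtie2 2.2.6, STAR 2.4.0a and featureCounts (Subread 1.5.0-p3), on mm10. The sources used here do not say which of them made the FPKM, nor the annotation, strand setting or handling of multimapping reads.

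Depth came from whole-fragment steps at low values (83.9% to 88.0% whole within 0.02 fragments, 30.1% to 39.4% by chance), with an error of up to 0.448% in 3 simulated libraries. The test between spleens was limma 3.58.1 (R 4.3.3) with a mean-variance trend, applied to log2(FPKM + 1), and genes needed 1 FPKM in 3 spleens. Lymph nodes entered a fit of 3 groups over 9 samples with 1 FPKM in 2 samples. Such fold changes understate the change of low genes. The scripts were tested on simulated data. Shares are of the family FPKM sum.

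Named genes were the top 3 of each library, the 6 largest called falls, all called rises, the 4 uncalled genes with the highest wild-type means, and genes above 1% in 2 plckGAPDH libraries. Igkv4-73 and Igkv13-85 were singled out after their values were seen. The members and lists were chosen with earlier results of these data known. No batch is given in the labels. Alternatives were another pseudocount, no filter, other scalings, sample weights, other diversity measures and leaving out each sample. Positions and sequences are from GENCODE M21, matched by Ensembl ID for all 162 rows. Python 3 scripts drew the figures.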

Additional observations from a re-analysis of the deposited data

Results flagged for a closer look

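Several kappa V values in the 4 plckGAPDH spleens were marked because 1 spleen lay far from the other 3. Of 38 values looked at, 15 were marked. The nominal rate of the mark, about 1 in 20, assumes a normal spread and values not picked beforehand. It therefore gives no scale for this count. The kappa V sum of spleen 547 was 5227 FPKM, against 1125 to 1796 in the others, and Igkv4-91 had 5154 FPKM there. In spleen 508, Igkv4-63 had 661 FPKM, Igkv10-96 had 119, Igkv4-59 had 72.5, Igkv4-61 had 67.9, Igkv4-72 had 29.5 and Igkv10-95 had 8.71, and subgroup 10 held 11.4% of the sum. The other 3 spleens had at most 27.04 FPKM of Igkv4-63 and 0.89 FPKM of Igkv4-61. In the unnumbered spleen, Igkv9-124 had 1098 FPKM, Igkv14-126 had 48.9, Igkv1-135 had 14.3 and Igkv4-57 had 3.93, and subgroup 9 held 61.2%. In spleen 343, Igkv8-24 had 113 FPKM, against at most 1.63 in the others. Every plckGAPDH spleen had at least 1 such value. These genes were named because they led a library, fell most or were high in wild type, so the number of marks does not describe the family.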

How the results depend on the processing

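The number of kappa V genes called lower between spleens was 61 as reported, 36 with no filter and 6 with wild-type spleens 4 and 5 left out, where 34 were tested. Leaving out 1 sample gave 34 to 66. Without any 1 wild-type spleen only 40 of the 61 genes were tested, and 36, 34 and 35 of these were called without spleens 1, 4 and 5. With the other pseudocount, both scalings and sample weights, 47 of the 61 were called each time. No alternative called a kappa V gene higher between spleens. The median log2 fold change was -3.28, and it was -4.78 with a pseudocount of 0.1, -2.44 with no filter and -2.81 with sample weights. In the lymph node comparison 1 gene was called higher with a pseudocount of 0.1 and 1 with sample weights, and leaving out 1 sample gave 0 to 13. The share next to the J segments was 50.7%, 52.3% and 65.2% over 81 rows in wild-type spleens, plckGAPDH spleens and lymph nodes, and 27.4%, 4.15% and 8.22% over the nearest 40 rows, a smaller set. Over all named genes and alternatives, 238 values kept direction and call, 26 lost the call and 18 gained it. The log2 fold change turned for genes that were not called. With sample weights it was -0.37 for Igkv4-91, 2.51 for Igkv9-124 and 1.54 for Igkv5-39. With 1 sample left out it ran from -0.82 (without spleen 508) to 2.11 for Igkv4-63 and from -1.08 (without spleen 547) to 2.45 for Igkv4-91. For Igkv5-39 it ran from -1.55 to 1.34. The cause of these changes was not tested beyond the fewer genes and samples. No paired analysis was possible because the groups share only the number 508. At 3 fragments, 0.46 to 0.65 FPKM, a V gene could not be told from 0.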
